A study of Mus musculus with 20 samples.

Results

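Day 4 of the conversion of mouse embryonic stem cells into epiblast stem cells was set against the stages on either side of it, day 0 and day 10, to ask which miRNAs were higher or lower at day 4 than at both. The 12 small RNA libraries of these 3 days were used, of 20 in the series: 4 at day 4, 4 at day 0 and 4 at day 10, chosen by the day in their labels. At each day there were 2 libraries of PGK, a female line, and 2 of E14, a male line, from the differentiation experiments numbered 2 and 3. Day 0 cells of both lines were embryonic stem cells cultured in 2i medium, which holds them in the naive state. Day 4 and day 10 cells of both lines were the same stem cells after 4 or 10 days on fibronectin in N2B27 with Activin A and Fgf2, the medium of epiblast stem cells. The labels name no genetic change in either line. The 2i medium, which is defined by kinase inhibitors, was given in the labels for the day 0 cells, so medium and day cannot be told apart between day 0 and the later days. Each sex was 1 line, so sex and line cannot be told apart. The day 0 samples of experiment 3 carry a cell-type label of cells in conversion, while their titles and day labels give day 0, and they were used as day 0. Per the growth protocol the wells were to be confluent and split for the first time 4 days after the change of medium, so confluence and day cannot be told apart. The replicates of a group came from separate differentiation experiments of 1 line. The main fit has day and line as terms, and its p-values measure the spread between libraries that these terms leave. That spread holds differences between experiments and any difference between the lines in their course over the days. The main fit treats same-numbered libraries of the 2 lines as independent.

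A miRNA is cut from a hairpin RNA that can give a 5p and a 3p strand, or arm, and is loaded into Argonaute, where bases 2 to 8 of the mature strand, the seed, pair with target mRNAs. Mouse pluripotent cells are known for a few miRNA clusters: miR-290 to miR-295 in naive cells, miR-302 with miR-367 in primed cells, the miR-17 to miR-92 cluster and its paralogues, which favour proliferation, and the imprinted Dlk1-Dio3 cluster of chromosome 12, expressed from the maternal copy. The let-7 family is held back in stem cells by Lin28 and marks differentiation. The cluster of miR-302 and miR-367, of primed cells, rose over the labelled days. It took 0.0141% to 0.0520% of the counts at day 0, 0.942% to 1.93% at day 4 and 2.61% to 5.77% at day 10. The miR-290 cluster, of naive cells, took 19.9% to 29%, 11% to 17.6% and 10.5% to 17.8%. Its share separated day 0 from the later days but not day 4 from day 10. These are bulk libraries, in which fewer cells of a type and less RNA per cell cannot be told apart.

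The mature sequences of the miRNAs found beyond both neighbours are shown here because they carry the result. Several are the opposite arms of 1 hairpin, 1 pair is complementary, and the seeds shown are all different. RefSeq entries of GRCm38.p6 matched 16 of the 18, and these held 16 distinct seeds. Capitals mark the seed. The first 10 lines are those above both neighbours at day 4 and the other 6 those below both, and miR-466a-5p and miR-297b-5p complete the set below.
miR-449a-3p: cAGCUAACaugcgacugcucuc
miR-449a-5p: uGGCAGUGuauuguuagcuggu
miR-488-5p: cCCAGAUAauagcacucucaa
miR-488-3p: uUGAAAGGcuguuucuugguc
miR-448-3p: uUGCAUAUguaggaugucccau
miR-1298-5p: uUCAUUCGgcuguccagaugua
miR-7a-2-3p: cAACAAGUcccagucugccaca
miR-195a-3p: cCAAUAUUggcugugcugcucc
miR-92a-3p: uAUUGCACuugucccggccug
miR-434-3p: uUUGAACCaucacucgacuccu
miR-1941-5p: aGGGAGAUgcugguacagaggcuu
miR-218-1-3p: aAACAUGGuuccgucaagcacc
miR-218-5p: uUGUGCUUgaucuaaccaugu
miR-24-3p: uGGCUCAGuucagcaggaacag
miR-3074-5p: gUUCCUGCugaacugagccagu
let-7e-5p: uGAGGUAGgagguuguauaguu

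Of 750 miRNAs tested, 10 were above both neighbours at day 4 (1.33%) and 8 were below both (1.07%), a miRNA being counted where its day 4 level differed from day 0 and from day 10 in the same direction, each at an adjusted p under 0.05 in edgeR's quasi-likelihood test. The 12 libraries held 7362470 to 18031067 counts and detected 863 to 919 miRNAs each, and 3 counts, the most that a count of 0 allows, corresponded to 0.166 to 0.407 CPM, the count scaled to a common library total. For the CPM values of single miRNAs these totals are adjusted by edgeR's TMM factors. The limit of 3 counts uses unadjusted totals and covers counting error only. The 95% intervals given below come from the quasi-likelihood fit and include the spread between libraries. With the experiment number as a replicate block, 24 miRNAs were above both and 13 below both, and these included all 10 and all 8. In 12 fits that each left out 1 library, miR-488-3p, miR-488-5p, miR-449a-3p and miR-218-5p were called in all 12. miR-24-3p, miR-1941-5p and miR-218-1-3p were called in 8 of the 12, miR-449a-5p and miR-448-3p in 6, miR-92a-3p and miR-466a-5p in 5, and miR-195a-3p, miR-1298-5p, miR-3074-5p and let-7e-5p in 4. miR-7a-2-3p and miR-297b-5p were called in 2 and miR-434-3p in 1. The fits with the fewest calls lacked the day 4 library of male experiment 2 (3 above both and 1 below both) or the day 10 library of female experiment 3 (also 3 and 1).

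Day 4 differed from day 0 in more miRNAs than from day 10. Against day 0, 395 miRNAs changed (52.7%), 214 upwards and 181 downwards, and against day 10, 78 did (10.4%), 54 upwards and 24 downwards. Between the 2 outer stages themselves 349 differed (46.5%). Day 4 departed from the mean of days 0 and 10 for 256 miRNAs (34.1%), of which 146 were higher and 110 lower, so that 57.0% of the calls were higher. Scaling by total counts alone gave 228 calls with 46.9% higher and moved the median change of all miRNAs from 0.03 to -0.11 on the log2 scale. Of the 256, 205 lay beyond both outer stages by the sign of the 2 changes (119 above and 86 below), and the other 51 (6.80%) lay between them. A departure from the mean alone is therefore not a peak or a dip.

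**Figure D1:**
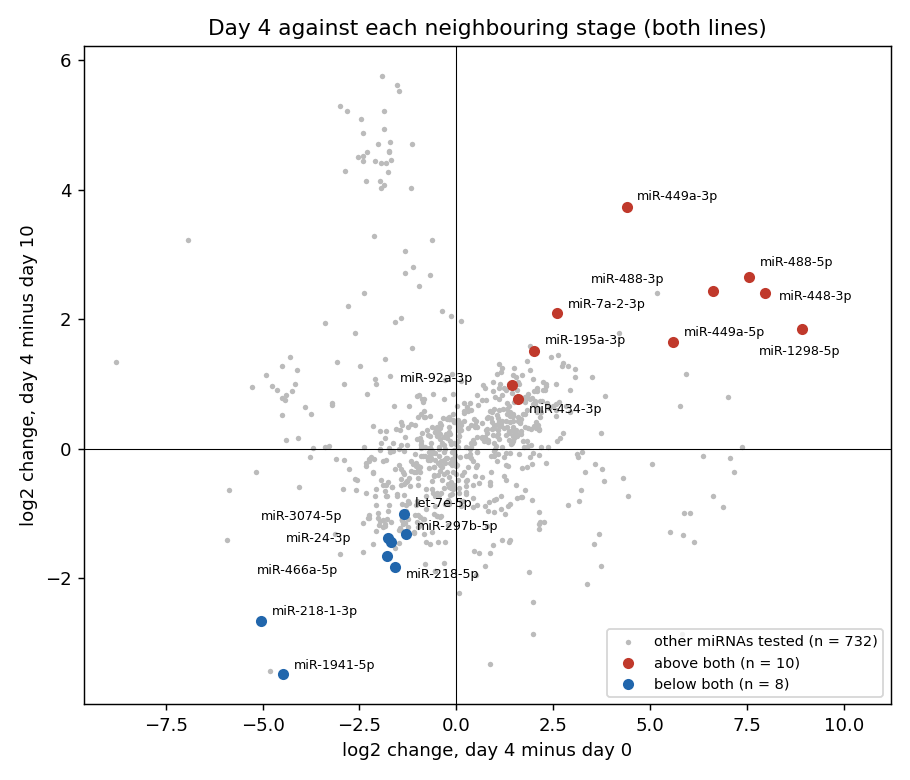
Each point is a miRNA, placed by its log2 change at day 4 against day 0 (horizontal axis) and against day 10 (vertical axis) in the fit over both lines. Red points (n = 10) passed the test above both neighbours and lie in the upper right, blue points (n = 8) passed below both and lie in the lower left, and grey points are the other 732 miRNAs tested. Horizontal positions of the miRNAs with 0 to 4 counts in the day 0 libraries depend on the fit's prior count.

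The change against day 10 was the one that limited the calls. Just inside the threshold stood let-7e-5p and miR-195a-3p, both with a larger adjusted p of 0.0487 in edgeR's test, and just outside it miR-301a-3p (0.0509), miR-669h-5p (0.0529) and miR-134-3p (0.0685). With the replicate block these 3 passed (0.0113, 0.0391 and 0.0463 against day 10). Of those outside, miR-301a-3p, an abundant member of the miR-130 seed family, had means of 8095, 3287 and 6452 CPM at days 0, 4 and 10. A count that needs no test gave more. In 49 miRNAs (6.53%) every day 4 library was above all day 0 and day 10 libraries of its own line, and in 24 (3.20%) every one was below them. Of the 10 miRNAs above both, 8 met this, the exceptions being miR-448-3p and miR-1298-5p, and of the 8 below both all 8 did. The same libraries chose these miRNAs, so their lack of overlap is not independent of the choice.

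The largest peak among miRNAs of at least 50 CPM was that of miR-488, whose hairpin lies in an intron of Astn1, the gene of a neuronal adhesion protein. miR-488-3p (chromosome 1, 158505689 to 158505709, plus strand, GRCm38) stood in female experiments 2 and 3 at 0.530 and 0.390 CPM on day 0, 48.3 and 68.9 CPM on day 4, and 19.9 and 12.4 CPM on day 10. In the male experiments it stood at 1.98 and 0.785 CPM, then 149.8 and 95.8 CPM, then 8.48 and 19.3 CPM. All 4 day 4 libraries were above all 8 others. Means were 0.921 ± 0.725, 90.7 ± 43.9 and 15 ± 5.53 CPM (SD, n = 4), a log2 change of 6.63 ± 0.58 (SE) against day 0 and 2.44 ± 0.48 against day 10, with edgeR adjusted p of 1.26e-06 and 0.00882.

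The other arm of the hairpin, miR-488-5p (158505651 to 158505671), followed the same course at a lower level. It had 3 counts in all at day 0, 8.05 to 23.1 CPM at day 4 and 0.886 to 3.46 CPM at day 10. Its day 4 level was 2.65 ± 0.58 (log2, SE) above day 10 with an edgeR adjusted p of 0.00957. Neither arm went back to its starting level by day 10: miR-488-3p was still 4.18 ± 0.54 (log2, SE) above day 0, with an edgeR adjusted p of 3.05e-05.

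Both arms of miR-449a also peaked. This miRNA is encoded in an intron of Cdc20b on chromosome 13, is known from multiciliated epithelia, and its 5p arm has the seed of the p53-induced miR-34 family. miR-449a-5p (113037549 to 113037570, plus strand) stood at 0.152, 0.584, 0.990 and 0.327 CPM in the day 0 libraries (female experiments 2 and 3, then male). It stood at 25.6, 17.7, 26.2 and 28.4 CPM at day 4 and at 8.34, 7.90, 3.16 and 11.4 CPM at day 10, so that the 3 days did not overlap. The change was 5.58 ± 0.59 (log2, SE) against day 0 and 1.65 ± 0.48 against day 10, with an edgeR adjusted p of 0.0420 for the latter.

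miR-449a-3p (113037589 to 113037610) was near the limit of counting outside day 4. It had 4 counts in the 4 day 0 libraries together, 76 at day 4 (13 to 28 a library) and 6 at day 10. Day 4 was 3.73 ± 0.79 (log2, SE) above day 10, with an edgeR adjusted p of 0.00905. A neighbour with the same seed as the 5p arm, miR-449c-5p, had means of 0.0731, 2.61 and 0.534 CPM at the 3 days. Its change against day 10 missed the threshold (2.41 ± 0.85, edgeR adjusted p 0.0878) and passed it with the replicate block (0.0379).

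The miR-34 genes with this seed were not above both neighbours. miR-34b-5p had means of 5.43, 77.3 and 113 CPM and rose from day 0 with no call between day 4 and day 10 (log2 change -0.50, edgeR adjusted p 0.545). miR-34c-5p, the most abundant of the list, likewise had 240.2, 3309 and 4231 CPM. miR-34a-5p, whose gene lies elsewhere, had 297, 215 and 285 CPM and no call in either comparison. Of the 9 tested members of the miR-34 and miR-449 list, 7 were higher than the mean of the neighbours, where 19.5% of all miRNAs were, and 2 were above both.

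Both miR-448-3p (chromosome X, 147158281 to 147158302, plus strand) and miR-1298-5p (147064918 to 147064939) lie in introns of Htr2c, the gene of a brain serotonin receptor, and they were nearly absent at day 0. miR-1298-5p had 3 counts at day 0 over all 4 libraries. At day 4 it stood at 13.7 and 2.48 CPM in female experiments 2 and 3 and at 78.5 and 50.4 CPM in the male ones, and at day 10 at 4.09 and 1.41 CPM and 16.3 and 14 CPM. The male libraries were above the female ones of the same day at days 4 and 10, and the female day 4 library of experiment 3 was below the female day 10 library of experiment 2. The day 4 level was 1.84 ± 0.54 (log2, SE) above day 10 with an edgeR adjusted p of 0.0423.

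miR-448-3p repeated this pattern at a lower level. It had 1 count at day 0 in all, and day 4 values of 4.14 and 0.443 CPM (female) and 15.2 and 10.6 CPM (male). At day 10 it had 0.472 and 0.235 CPM (female) and 2.40 and 2.94 CPM (male). The female day 4 library of experiment 3, with 5 counts, again lay within the female day 10 range. The day 4 level was 2.41 ± 0.65 (log2, SE) above day 10, with an edgeR adjusted p of 0.0282.

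Another pair of peaks came from single arms of hairpins, in each case the arm that is usually discarded. miR-195a-3p (chromosome 11, 70235100 to 70235121, plus strand, between genes) comes from a member of the miR-15/16 family, which restrains the cell cycle. It stood at 4.62, 4.19, 5.56 and 12.4 CPM at day 0 (female experiments 2 and 3, then male), at 34.9, 12.1, 40.7 and 16.7 CPM at day 4, and at 10.5, 8.21, 8.86 and 8.38 CPM at day 10. Both experiment 2 libraries of day 4 were above both of experiment 3, and within each line every day 4 library was above the other days. The change was 2.01 ± 0.47 (log2, SE) against day 0 and 1.51 ± 0.46 against day 10, with an edgeR adjusted p of 0.0487 for the latter.

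The main arm, miR-195a-5p, had 93.7, 141 and 104 CPM and no call (edgeR adjusted p of 0.0862 against day 0 and 0.450 against day 10). The most abundant member of its family was not above day 0: miR-16-5p had means of 22629.6, 11033 and 12928 CPM, below day 0 by an edgeR adjusted p of 0.00221 and not called against day 10 (0.575). Of the 16 tested members of the miR-15/16 list, 2 were higher and 1 was lower than the mean of the neighbours. Among all miRNAs 19.5% and 14.7% were, and counts this small are not shown to differ from those shares.

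miR-7a-2-3p (chromosome 7, 78888335 to 78888356, plus strand, between genes) is the minor arm of a miRNA known from neuroendocrine cells. It had 15 counts at day 0, 87 at day 4 and 21 at day 10 over 4 libraries each, with day 4 values of 0.709 to 3.0 CPM against at most 0.457 CPM at day 0 and 0.653 CPM at day 10. It was 2.59 ± 0.64 (log2, SE) above day 0 and 2.09 ± 0.61 above day 10, with an edgeR adjusted p of 0.0420 for the latter. The main arm miR-7a-5p, which other copies of the gene also give, had 9.76, 9.37 and 12.1 CPM and was not called.

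**Figure D2:**
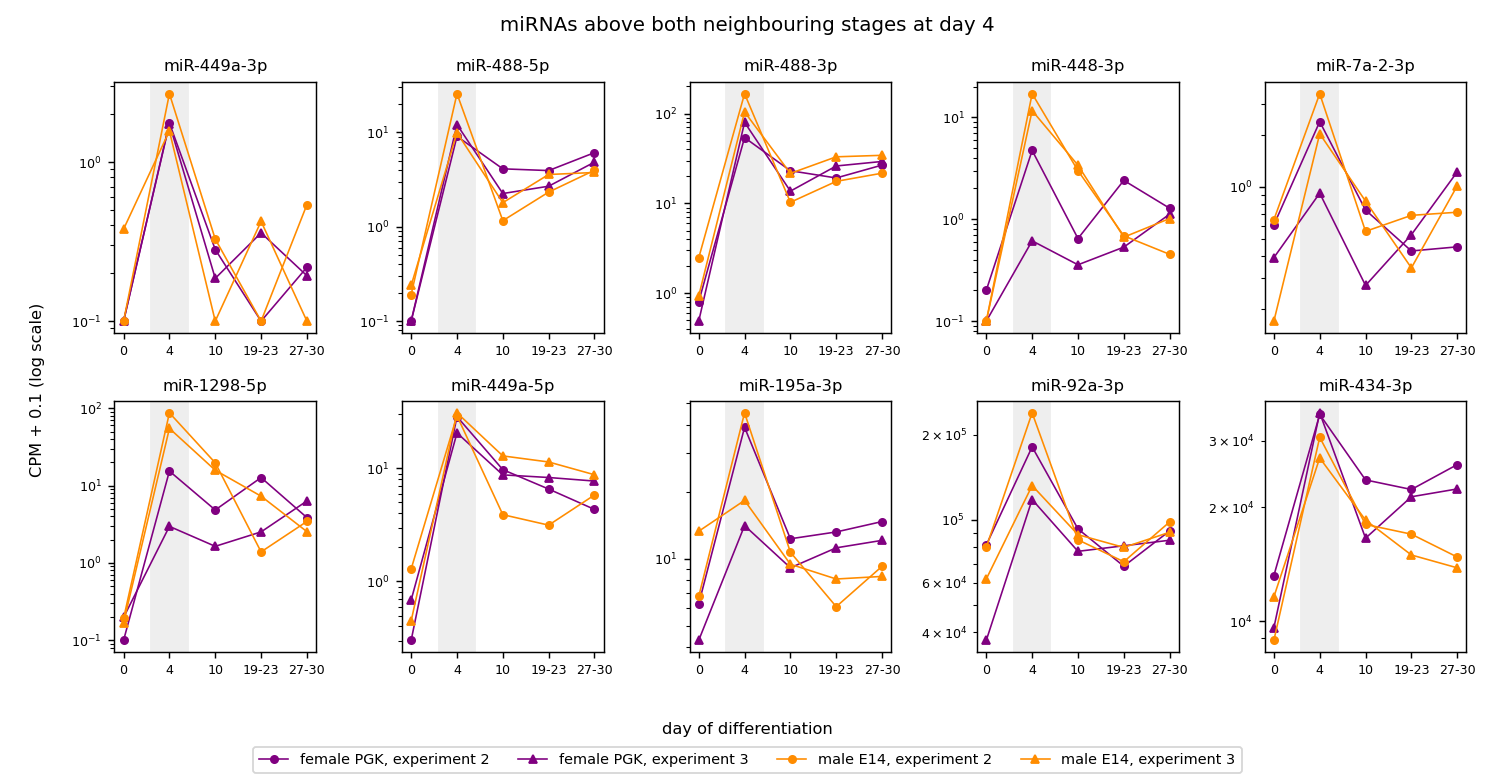
Each panel shows 1 of the 10 miRNAs above both neighbours, as CPM + 0.1 (scaled over all 20 libraries, so slightly different from the values in the text) on a log axis against the day of differentiation, with 1 line for each of the 4 differentiation courses (purple female, orange male; circles experiment 2, triangles experiment 3) and day 4 shaded. In the fit of days 0, 4 and 10 over both lines, the log2 change against day 0 was larger than that against day 10 for each of the 10. Single courses can differ, such as male experiment 3 of miR-195a-3p, which rises less to day 4 than it falls after it. The female experiment 3 course of miR-448-3p and miR-1298-5p is the lowest at day 4.

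By far the most abundant miRNA with a peak was miR-92a-3p, the last miRNA of the proliferation-linked miR-17 cluster. It is made from 2 loci, in an exon of Mir17hg (chromosome 14, 115044476 to 115044496, plus strand) and in the miR-106a to miR-363 cluster (chromosome X, 52741854 to 52741874, minus strand), whose mature products are identical. The day 0 libraries held 61013 and 37401 CPM (female experiments 2 and 3) and 66629 and 57966 CPM (male). The day 4 libraries held 162405 and 101889 CPM and 215030.0 and 121521 CPM, and the day 10 libraries 80227 and 70459.7 CPM and 70715 and 79346 CPM. Every day 4 library was above all 8 others, and experiment 2 was above experiment 3 in both lines.

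The means of miR-92a-3p were 55752 ± 12749, 150211 ± 50028 and 75187 ± 5324 CPM (SD, n = 4). It took 3.55% to 6.52% of the counts at day 0, 10.9% to 17.5% at day 4 and 6.2% to 9.91% at day 10. By mean CPM it ranked 3 at day 0, where miR-295-3p was first, 1 at day 4, and 3 at day 10, where miR-182-5p was first. The changes were 1.43 ± 0.24 and 0.98 ± 0.23 (log2, SE) with edgeR adjusted p of 2.61e-04 and 0.0153, and day 10 was not called different from day 0 (log2 change 0.45, 95% interval -0.05 to 0.94).

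Some arms come from only 1 of the 2 clusters and are given here by cluster. They do not measure how much of miR-92a-3p came from each locus, which was not tested. How multiply matching reads were counted is not given. Of the 10 arms specific to the chromosome X cluster, 9 were higher at day 4 than the mean of the neighbours (19.5% of all miRNAs were), and all 10 had a day 4 level above day 10 by sign (log2 0.93 to 1.44, median 1.12), though none passed the test against day 10 (edgeR adjusted p 0.0701 to 0.258). With the replicate block 24 of all 750 miRNAs were above both. Of these arms 3 then passed against day 10 and were above both: miR-18b-3p (edgeR adjusted p 0.0238), miR-363-5p (0.0487) and miR-363-3p (0.0493). Of the 10 specific to chromosome 14, 3 were higher than the mean of the neighbours, near the share of all miRNAs, and the changes of the 10 against day 10 ran from -0.14 to 0.60 with a median of 0.15. The same median over all 750 miRNAs was 0.06. With total counts alone the medians were 0.87 (chromosome X), -0.11 (chromosome 14, a change of sign) and -0.14 (all). The difference between the clusters was not tested.

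Values of single arms of both clusters are given as examples. miR-363-3p, at the end of the X cluster and with the seed of miR-92a-3p, had means of 2224, 5575 and 2445 CPM, and its change of 1.11 ± 0.37 (log2, SE) against day 10 had an edgeR adjusted p of 0.0701. miR-17-5p, the first of the chromosome 14 cluster, had 924, 1375 and 1148 CPM and was called in neither comparison. miR-92a-1-5p, which marks the chromosome 14 copy of miR-92a, had 945, 3294 and 2131 CPM, and miR-92a-2-5p, which marks the X copy, 2.41, 14.2 and 5.72 CPM. Both rose from day 0 (edgeR adjusted p 0.00227 and 0.00283), and neither was called against day 10 (0.355 and 0.160).

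Other miRNAs with the seed of miR-92a-3p were not above both neighbours. miR-25-3p, from the paralogous cluster inside Mcm7, had 13979, 11584 and 9771 CPM with no call. Its cluster mate miR-93-5p had 11935, 3039 and 3376 CPM, lower than day 0 (edgeR adjusted p 1.62e-04) and not called against day 10 (0.721). miR-367-3p, of the primed-state miR-302 cluster, went on from 6.42 to 404 and 848 CPM.

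**Figure D3:**
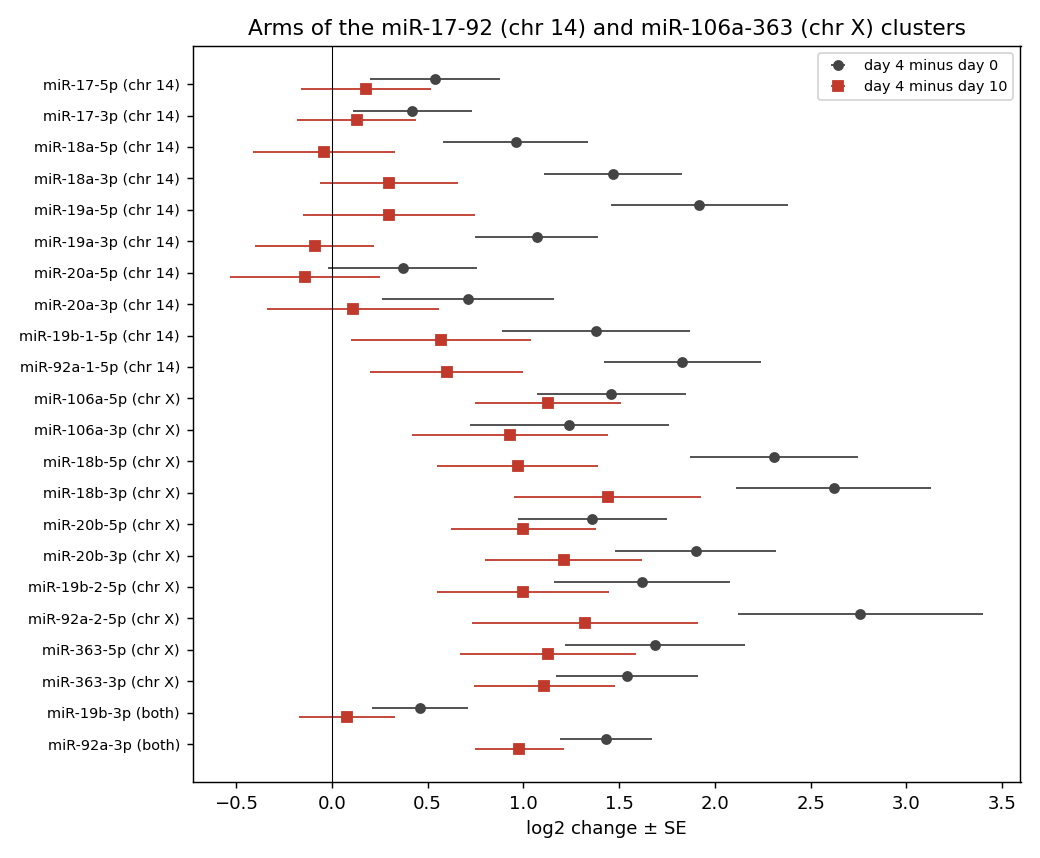
The log2 changes at day 4 against day 0 (grey circles) and against day 10 (red squares) are drawn with their standard errors. Arms of the 2 clusters that make miR-92a-3p are grouped by cluster, and miR-19b-3p and miR-92a-3p, made by both, stand apart. Against day 10 the 10 arms specific to the X cluster lie between 0.93 and 1.44, and the 10 specific to the chromosome 14 cluster between -0.14 and 0.60.

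miR-434-3p was the Dlk1-Dio3 miRNA above both neighbours. It lies on chromosome 12 (109594565 to 109594586, plus strand), antisense to an exon of Rtl1, the retrotransposon-derived gene expressed from the other parental copy. Day 0 libraries held 9884, 9578, 7412 and 10877 CPM (female experiments 2 and 3, then male), day 4 libraries 31576, 30721, 27585 and 24846 CPM, and day 10 libraries 20414, 15093, 14995 and 16571 CPM. The 3 days did not overlap. Means were 9438 ± 1460.1, 28682 ± 3079 and 16768 ± 2535 CPM (SD, n = 4), with changes of 1.60 ± 0.21 and 0.77 ± 0.21 (log2, SE) and edgeR adjusted p of 3.83e-05 and 0.0259.

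Many other miRNAs of the imprinted cluster were higher at day 4 than the mean of the neighbours. In the part from Meg3 to Rtl1, 22 of 30 tested miRNAs were higher than the mean of the neighbours, none was lower, and 11 had every day 4 library above its own line's other days, where 19.5% of all miRNAs were higher and 6.53% had every day 4 library above. In the Mirg part, from miR-379 to miR-410, 43 of 73 were higher and 17 had every day 4 library above, beside the same shares. Against day 0, 28 of the 30 and 59 of the 73 were called higher (28.5% of all miRNAs were). Against day 10 only 1 and 0 were (7.20% of all), so the parts were not called as peaks. The median change against day 10 was 0.55 and 0.43 (log2), beside 0.06 over all miRNAs, and with total counts alone 0.36 and 0.28, beside -0.14. miR-127-3p, also antisense to Rtl1 and the most abundant of the cluster, had means of 31725, 114795 and 66315 CPM. Its day 4 libraries of experiment 3 (114197 female, 73629 male) were close to or below the day 10 libraries of experiment 2 (103095 female, 77749 male), and its change against day 10 was 0.78 ± 0.30 (log2, SE) with an edgeR adjusted p of 0.118.

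With the replicate block miR-127-3p was above both neighbours (edgeR adjusted p 0.0113). With it 4 of the 30 tested in the Meg3 to Rtl1 part, miR-434-3p included, were above both. So were 5 of the 73 of the Mirg part, among them miR-381-3p and miR-409-3p, beside 24 of all 750 miRNAs. Together the Meg3 to Rtl1 part took 4.74% to 6.38% of the counts at day 0, 15% to 21% at day 4 and 10.5% to 15.9% at day 10.

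Among the miRNAs below both neighbours, miR-218-5p held its call in the most alternative settings. It is made from introns of Slit2 (chromosome 5, 48223966 to 48223986, plus strand) and Slit3 (chromosome 11, 35616840 to 35616860, plus strand), genes of axon guidance ligands, and is known from motor neurons. Female experiments 2 and 3 held 239 and 394 CPM at day 0, 55.7 and 101 CPM at day 4, and 521 and 264 CPM at day 10. Male experiments held 548 and 491 CPM, 247 and 201 CPM, and 755 and 402 CPM. Every day 4 library was below the other days of its line, and the male libraries stood above the female ones at days 0 and 4. The changes were -1.59 ± 0.39 and -1.83 ± 0.39 (log2, SE) with edgeR adjusted p of 0.00389 and 0.00905.

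The 3p arms of the 2 miR-218 hairpins differ in sequence and were called differently, a difference that was not tested itself. miR-218-1-3p, from Slit2 (48224005 to 48224026), had 814 counts at day 0, 21 at day 4 and 158 at day 10. Its day 4 values of 0.235 to 0.887 CPM were below all others (6.29 to 32.8 CPM at day 0 and 1.41 to 6.02 CPM at day 10), with changes of -5.04 ± 0.76 and -2.66 ± 0.72 (log2, SE) and an edgeR adjusted p of 0.0282 for the latter. miR-218-2-3p, from Slit3, had means of 1.34, 2.81 and 4.17 CPM and was not called (0.155 and 0.287). miR-218-1-3p was the single one of the 8 that was still lower at day 10 than at day 0 (-2.39 ± 0.68, edgeR adjusted p 0.00985).

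miR-24-3p, a regulator of cell-cycle genes, was below both stages too. It is made beside miR-23b and miR-27b on chromosome 13 (63301251 to 63301272, plus strand) and beside miR-23a and miR-27a on chromosome 8 (84208875 to 84208896, plus strand). Day 0 libraries held 52.2, 200.0, 159 and 252 CPM (female experiments 2 and 3, then male), day 4 libraries 39.3, 41.5, 50.1 and 73.4 CPM, and day 10 libraries 134, 117, 156 and 134 CPM. The day 0 library of female experiment 2 was within the range of day 4 and the other 3 were above it, while within each line day 4 was the lowest. Changes were -1.69 ± 0.40 and -1.44 ± 0.40 (log2, SE), with edgeR adjusted p of 0.00339 and 0.0310.

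miR-3074-5p is the reverse of the same place. Its loci lie on the opposite strand over miR-24-3p (chromosome 13, 63301249 to 63301270, minus strand, and chromosome 8, 84208873 to 84208894, minus strand), and the sequences printed above are complementary over 20 bases. Its counts were 0.638 to 0.781 times those of miR-24-3p in the 12 libraries, and for the other arms of the same pair, miR-24-2-5p and miR-3074-2-3p, the ratio was 0.992 to 0.999. The sources used here do not say whether the strand was used in counting, so the 2 names cannot be told apart as separate RNAs. Its changes of -1.77 ± 0.41 and -1.39 ± 0.41 (log2, SE; edgeR adjusted p 0.00300 and 0.0423) therefore do not count as a second measurement beside miR-24-3p.

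In the 2 clusters that hold miR-24, the neighbouring miRNAs were called against different stages. On chromosome 13, miR-27b-3p had means of 31421, 15205 and 15121 CPM, lower than day 0 (edgeR adjusted p 0.00346) and not called against day 10 (0.872). On chromosome 8, miR-27a-3p had 636, 552 and 1479 CPM, not called against day 0 (0.483) and lower than day 10 (0.0148). miR-23b-3p had 534, 157 and 161 CPM, and miR-23a-3p 152, 92.8 and 300.2 CPM, with calls on the same sides (edgeR adjusted p 0.00482 against day 0 and 0.0183 against day 10). Of the 10 tested members of the miR-23/27/24 list, 5 were lower than the mean of the neighbours, where 14.7% of all miRNAs were.

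let-7e-5p (chromosome 17, 17830366 to 17830387, plus strand, in an intron of Spaca6) was the 1 let-7 miRNA lower at day 4 than at day 10 by test. It stood at 448 and 538 CPM in the female and 261 and 275 CPM in the male day 0 libraries, at 169, 165, 107 and 133 CPM at day 4, and at 239, 423, 273 and 217 CPM at day 10 (female experiments 2 and 3, then male). All 4 day 4 libraries were below all 8 others. The changes were -1.36 ± 0.31 and -1.01 ± 0.31 (log2, SE) with edgeR adjusted p of 0.00246 and 0.0487, and day 10 was not called different from day 0 (log2 change -0.36, 95% interval -1.0 to 0.29).

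Of the 8 other miRNAs tested with this seed, 7 fell from day 0, let-7c-5p being the exception (edgeR adjusted p 0.278), and none was called against day 10. The 3 most abundant are shown to compare with let-7e-5p, printed above: their seeds are identical and the bases after it differ.
let-7f-5p: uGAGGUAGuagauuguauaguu
let-7i-5p: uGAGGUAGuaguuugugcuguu
let-7g-5p: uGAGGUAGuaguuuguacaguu
let-7f-5p had means of 11886, 524 and 287 CPM at days 0, 4 and 10, let-7i-5p 5042, 203 and 108 CPM, and let-7g-5p 3624, 136 and 68.9 CPM. Each was lower at day 4 than at day 0 by over 4 on the log2 scale and had a positive change against day 10, not called (edgeR adjusted p 0.133, 0.0509 and 0.0597). let-7e-5p, at day 0 above let-7b-5p (118 CPM) and below the other 7 of this seed, had the highest mean at day 10, 288 CPM, beside 287 CPM for let-7f-5p, a gap within the spread of both. Of the 19 tested members of the let-7 list 16 were lower than the mean of the neighbours (14.7% of all miRNAs were), and 1, let-7e-5p, was below both (1.07% of all). Its 3p arm had 9.62, 6.85 and 11.4 CPM and was not called.

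The neighbours of let-7e in its cluster were not below both stages. miR-99b-5p, 172 bases from let-7e-5p, had 3783, 7705 and 14834 CPM, higher than day 0 (edgeR adjusted p 0.0318) and not called against day 10 (0.0909). miR-125a-5p, a mammalian relative of lin-4, had 1652, 2962 and 5744 CPM, higher than day 0 (0.0319) and lower than day 10 (0.0487). By their means both lay between days 0 and 10 at day 4, and by test only miR-125a-5p did, while let-7e-5p lay below.

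**Figure D4:**
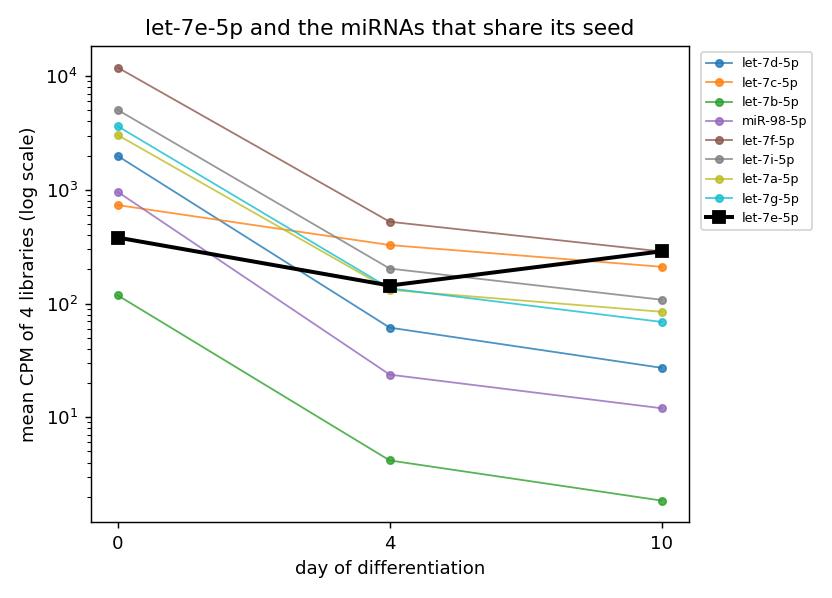
Mean CPM of 4 libraries, on a log axis, is drawn at days 0, 4 and 10 for let-7e-5p (black squares) and the 8 other miRNAs tested that have its seed. let-7e-5p goes from 380.3 to 144 and back to 288 CPM, and each of the others has its lowest mean at day 10.

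The remaining 3 were rare. miR-1941-5p (chromosome 15, 101369364 to 101369387, plus strand, in introns of Gm35853 and, on the opposite strand, of Krt80) had 175 counts at day 0, 6 at day 4 and 80 at day 10. Its changes were -4.47 ± 0.94 and -3.49 ± 0.95 (log2, SE), with an edgeR adjusted p of 0.0282 for the latter, and 113 of the day 0 counts came from male experiment 3. Its other arm miR-1941-3p had means of 1.49, 0.0519 and 0.596 CPM and missed the threshold against day 10 (0.0782).

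miR-466a-5p and miR-297b-5p belong to the rodent families in the Sfmbt2 intron, an imprinted cluster known from placenta, whose copies are near identical, so that the counts of single names are uncertain. miR-466a-5p had day 4 values of 0.416 to 0.621 CPM against 1.14 to 2.36 and 1.10 to 2.28 CPM, and miR-297b-5p 2.41 to 4.77 CPM against 7.32 to 14.2 and 6.69 to 11.1 CPM. Neither overlapped with the outer days. Of 54 tested miRNAs of the cluster 26 were lower than the mean of the neighbours (14.7% of all miRNAs were) and none was higher, and 6 had every day 4 library below its own line's other days (3.20% of all). The median change was -1.31 against day 0 and -1.09 against day 10, beside -0.10 and 0.06 over all miRNAs.

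The abundant names of that cluster missed the test against day 10. miR-467a-5p had means of 404, 155 and 327 CPM and was -1.10 ± 0.41 (log2, SE) from day 10, with an edgeR adjusted p of 0.107. Its male day 4 library of experiment 2 held 65.8 CPM, and the 3 others 138 to 247 CPM. The cluster took 0.229% to 0.306% of the counts at day 0, 0.0411% to 0.215% at day 4 and 0.123% to 0.333% at day 10, ranges that overlap between day 4 and day 10.

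**Figure D5:**
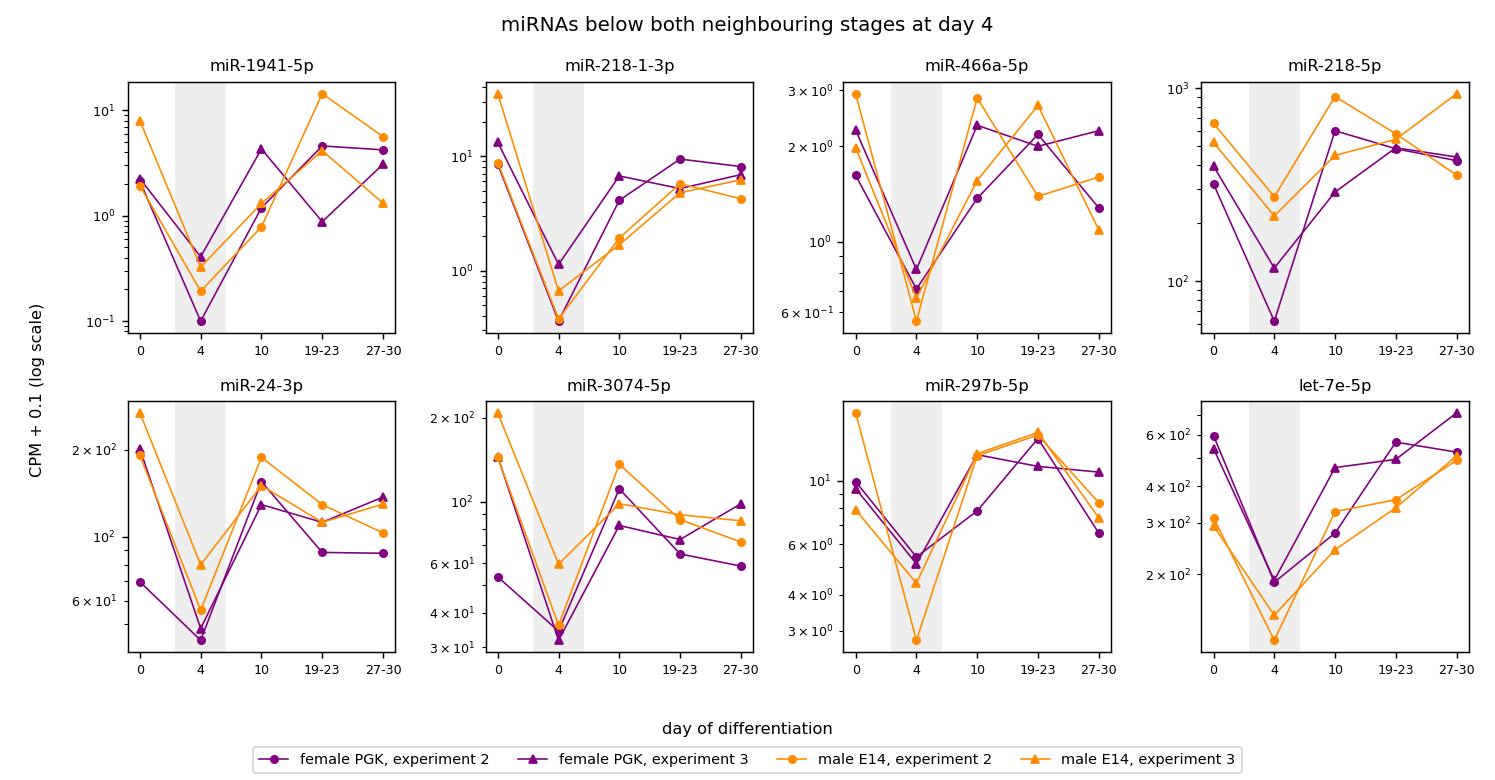
Each panel shows 1 of the 8 miRNAs below both neighbours, as CPM + 0.1 (scaled over all 20 libraries, so slightly different from the values in the text) on a log axis against the day of differentiation, with 1 line for each of the 4 courses (purple female, orange male; circles experiment 2, triangles experiment 3) and day 4 shaded. Every course has a lower value at day 4 than at days 0 and 10, and values of days 19 to 30 are again above day 4.

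The level at day 10 was also set against day 0. Of the 10 above both, 6 were still different from day 0 at day 10 (46.5% of all miRNAs were, 24.7% upwards) and 4 were not called: miR-92a-3p, miR-195a-3p, miR-7a-2-3p and miR-449a-3p, with 95% intervals of -0.05 to 0.94, -0.48 to 1.48, -0.95 to 1.95 and -1.57 to 2.88 on the log2 scale. Of the 8 below both, 1 was still lower (21.9% of all miRNAs were) and 7 were not called. The difference between the sets was not tested. The day 0 and day 10 libraries also served to choose both sets, so these counts describe the course and are not independent of that choice. For miR-218-5p the interval was -0.56 to 1.04 and for miR-24-3p -1.08 to 0.59, which do not show that the outer stages were alike.

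The later cultures, 8 libraries of days 19 to 30, were on the same side. In the fit of all 20 libraries 9 of the 10 were higher at day 4 than at days 19 to 23 (17.7% of 773 miRNAs were), the exception being miR-1298-5p (edgeR adjusted p 0.0529), and 9 were higher than at days 27 to 30 (11.9%), the exception being miR-7a-2-3p (0.0561). All 8 of the other set were lower at day 4 than at either later stage (16.7% and 11.3%). miR-92a-3p was 1.15 ± 0.22 and 0.87 ± 0.22 (log2, SE) above them, and let-7e-5p -1.44 ± 0.23 and -1.82 ± 0.23 from them. The day 4 libraries here are those that chose the miRNAs, so these counts give the course and are not independent of the choice.

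Neither set differed between the lines by test. The difference of the day 4 contrast between female and male was called for 0 of 804 miRNAs in edgeR's test, with 58 (7.21%) at an unadjusted p under 0.05, and DESeq2 gave 0 with 60. Among the 18, the female minus male difference was largest in size for miR-448-3p (-1.98 ± 1.54, log2, SE) and miR-449a-3p (1.81 ± 1.43), with edgeR adjusted p of 0.884 and 0.889. For miR-92a-3p it was 0.03 ± 0.52. With errors of this size the lines are not shown to be alike.

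miRNAs that departed from the mean of the neighbours without a peak are shown by the primed-state cluster. miR-302a-3p had means of 57.8, 3613 and 10941 CPM, 2.35 ± 0.30 (log2, SE) above the mean of the neighbours, with a change of -1.44 ± 0.36 against day 10 (edgeR adjusted p 0.0207). miR-302d-3p had 111, 5441 and 15995 CPM. Calls in opposite directions were made for 24 miRNAs lower than day 0 and higher than day 10 and for 7 higher than day 0 and lower than day 10. All 28 tested miRNAs of the X-linked testis clusters were higher at day 4 than at day 10 (7.20% of all were), and 13 of them were lower than at day 0 (24.1% of all were). Libraries of the same day differed widely in these miRNAs. They took 0.00459% to 7.98% of the counts at day 0, 0.00597% to 1.43% at day 4 and 9.59e-04% to 0.0565% at day 10. The calls are those of the fit over both lines and do not show that all courses were alike.

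Markers of other cells were checked because several miRNAs of both sets are known from neurons. The neural list held 27 miRNAs, 21 of them tested, and took 0.126% to 0.187% of the counts at day 0, 0.131% to 0.269% at day 4 and 0.189% to 0.265% at day 10. Of the 21, 8 were higher and 3 lower than the mean of the neighbours, 1 was above both (miR-7a-2-3p) and 2 were below both (the miR-218 arms). Over all miRNAs the shares were 19.5% higher, 14.7% lower, 1.33% above both and 1.07% below both, so the share of lower ones was near that of all. miR-9-5p, which defines neural progenitors, had means of 158, 915 and 582 CPM, higher than day 0 (edgeR adjusted p 3.99e-04) and not called against day 10 (0.333), and miR-128-3p, of neurons, had 470.1, 582 and 386 CPM with no call. Their part in the results was not tested.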

How the data were processed

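Small RNA libraries were sequenced on Illumina machines from Trizol-extracted, DNase-treated RNA, per the labels. The authors deposited raw counts per miRNA, 1 table for each line. CASAVA 1.8.2 and DESeq2 are named in the submitters' processing notes, with the builds mm10 and GRCm38. Which aligner and miRNA annotation served, and how multiply matching reads were counted, is not given in the sources used here.

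There were 1091 miRNAs (male table) and 1109 (female), and the 1063 shared ones were used. Libraries were grouped by the labelled day. Counts were tested with edgeR 4.0.16 (R 4.3.3): TMM factors (0.815 to 1.29), filterByExpr by day (750 miRNAs, 99.995% of counts kept), quasi-likelihood F tests with day and line as terms (8 residual degrees of freedom) and Benjamini-Hochberg adjustment over all miRNAs tested. Line differences used 1 coefficient per line and day (804 tested), and the later days all 20 libraries (773 tested). The code was tested on simulated data. Replicates of a group correlated at 0.957 to 0.975 (log2 CPM) and differed by more than sampling noise.

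Same-numbered samples share a named differentiation experiment in the labels. Deviations of same-day, same-numbered libraries of the 2 lines correlated at 0.344 to 0.585. Within a line the correlation between days was 0.0742 to 0.409 (median 0.272), with 5 of 6 above 0.1. Same-numbered libraries that differed in both line and day correlated at 0.0973 to 0.379 (median 0.351), so the within-line values are not particular to a course.

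In detail the text gives up to 12 miRNAs a direction beyond both neighbours with at least 50 CPM in the highest day and no overlap within line, the up to 3 most abundant members of each list with such miRNAs, and the 3 most abundant that lay between. Rarer miRNAs beyond both, cluster neighbours, opposite arms, seed mates and block-only calls were named after their values were seen. Members and lists were chosen with earlier results of these data known. Positions and gene annotation come from miRNA hairpins and genes of GRCm38, sequences from RefSeq. Alternatives were other scalings, filters, blocks, DESeq2 1.42.0, all 20 libraries, each line alone and leaving out each library.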

Additional observations from a re-analysis of the deposited data

How the results depend on the processing

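The list of miRNAs beyond both neighbours depended on the setting more than the directions did: in every alternative that gave a value, each of the 18 kept the sign of its change against the nearer neighbour. miR-218-5p kept its call in 22 of 23 settings, miR-488-3p in 21 of 23, miR-449a-3p and miR-488-5p in 20 of 22, and miR-434-3p in 5 of 23. The number above both was 4 with total counts, 5 with a mean of at least 10 CPM, 24 with the replicate block, 22 with DESeq2 and 27 with all 20 libraries. The number below both was 5 with no filter on low counts, 13 with the replicate block, 13 with the replicate block within line, 18 with DESeq2, 26 with all 20 libraries and 24 with 1 coefficient per line and day. The female line alone gave 78 calls against the mean of the neighbours, 0 above both and 3 below both, and the male line alone 84, 0 and 0, in fits with fewer samples. The cause of the other shifts was not tested. Leaving out 1 library gave 152 to 263 calls against the mean of the neighbours, 3 to 12 above both, 1 to 12 below both and 0 for the line difference. The lowest came without the day 4 library of male experiment 2, with 152, 3 and 1. The counts above and below both were 6 and 4 without that of male experiment 3 (168 calls against the mean), 3 and 2 without that of female experiment 2, 3 and 1 without the day 10 library of female experiment 3, and 3 and 5 without that of male experiment 2. The number above both was 4 without the day 10 library of female experiment 2 and 5 without the day 0 library of male experiment 2. The number below both was 5 without the day 0 library of female experiment 3 and 12 without the day 10 library of female experiment 2. miR-488-5p, miR-488-3p, miR-449a-3p and miR-218-5p stayed called without any 1 library. A single library left in its line and day is assumed to vary like the others. The replicate block changed no other count of calls by over 1.5 times. Depth limits the rare miRNAs, with 3 counts equal to 0.166 to 0.407 CPM.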
